A study of Mus musculus with 6 samples.

Results

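Macrophages cultured from the bone marrow of mice were treated for 24 h with the lymphotoxin heterotrimer LTα1β2 (written LT below, as in the sample titles) or with vehicle, and their RNA was sequenced. The comparison uses the 2 LT libraries and the 2 vehicle libraries, which are 4 of the 6 in the series. The remaining 2 libraries, from cells given LCL161 plus LT for the same 24 h, share in the estimate of the spread. LCL161, a small molecule, antagonises the ubiquitin ligases cIAP1 and cIAP2. The labels name no strain, genotype, sex, age, dose or batch for any group, and do not say how the cells were grown. They also do not say whether replicates came from separate animals or cultures, and the p-values below therefore rest on differences between libraries that could be technical.

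LTα1β2 is a membrane ligand of the tumour necrosis factor family, made mainly by lymphocytes and lymphoid tissue inducer cells. It binds the lymphotoxin beta receptor (Ltbr), which is found on stromal and myeloid cells and not on lymphocytes. Receptor engagement draws TRAF2, TRAF3 and the cIAP proteins to the receptor, which lets the kinase NIK (Map3k14) accumulate and process the NF-kB precursor p100 (Nfkb2) for pairing with RelB. The pathway is best known for the formation of lymph nodes and spleen structure. In macrophages, interferon gamma signals through a different route, which starts at JAK kinases, and turns on guanylate-binding proteins, antigen presentation and chemokines for T cells.

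Levels below are CPM, read counts scaled to the TMM library size and not to gene length, so they compare libraries and not genes. Pairs of values are given in the order of replicates 1 and 2. Changes are log2 differences, LT minus vehicle, with an approximate SE. A gene is said to have risen or fallen where edgeR's quasi-likelihood test over all 18812 genes tested gave a Benjamini-Hochberg adjusted p under 0.05.

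The label was checked against marker genes. The macrophage markers summed to 30347 and 37272 CPM in the vehicle libraries and 37774 and 36885 CPM with LT, and all 14 were detected. Of these 14, 10 were called higher with LT and 1 lower, with a median change of 0.54 (5 higher without vehicle 1 or LT 2). Among them Csf1r, the receptor for the macrophage growth factor, stood at 2199 and 2633 CPM in vehicle and 3421 and 3345 CPM with LT. RNA of stromal cells was also present. The 18 fibroblast and stromal markers summed to 17347 and 12012 CPM in vehicle, 5092 and 7219 CPM with LT, and 1642 and 1574 CPM with LCL161 plus LT. None of these markers was at 0 in all libraries, although Lum had only 1 to 3 reads in each vehicle and LT library. The osteoblast and adipocyte markers followed the same order in sum, at 2965 and 2143 CPM in vehicle and 1033 and 1579 CPM with LT. Bglap, the bone matrix protein osteocalcin, was at 0 in all 6 libraries. The list also holds Spp1 and Cebpa, and the sum alone does not show RNA of osteoblasts or adipocytes. Of the 8 tested, only 4 were called lower, and fewer without vehicle 1, LT 1 or LT 2. The median change of the 8 was -1.05, with -0.72 without vehicle 1 and -1.61 without LT 2. Fewer cells of a type and less RNA per cell cannot be told apart in such bulk RNA. The part of this difference in the other results was not tested.

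Markers of further cell types were lower in sum. Neutrophil markers summed to 716 and 1055 CPM in vehicle and 1363 and 1122 CPM with LT, and monocyte markers to 195 and 289.6 CPM and 181 and 159 CPM. Dendritic cell markers stood at 298.5 and 248.8 CPM in vehicle and 315 and 371 CPM with LT, and most of the sum came from Bst2 and Fscn1. These 3 sums did not overlap between the groups, higher with LT for neutrophil and dendritic cell markers and lower for monocyte markers. Members of the lists were mixed. Of 9 tested monocyte markers 4 were called higher and 3 lower, with a median of 0.64, which goes against the lower sum. F13a1, which held most of the monocyte sum in vehicle, had the largest decrease, at -4.15. The median was 0.05 for neutrophil markers and 0.16 for dendritic cell markers, or -0.13 and -0.02 with total-count scaling. Without vehicle 1 the neutrophil median was -0.27 and the dendritic cell median -0.09. Without vehicle 2 they were 0.81 and 0.22. For lymphocytes the sums were small, with T and NK cell markers at 10.9 and 15.2 CPM in vehicle and 10.8 and 13.1 CPM with LT, and B and plasma cell markers at 19.2 and 17.6 CPM and 34.3 and 16.6 CPM. Cd3d, Cd3g and Cd8a did not reach the number of reads needed for a test.

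**Figure D1:**
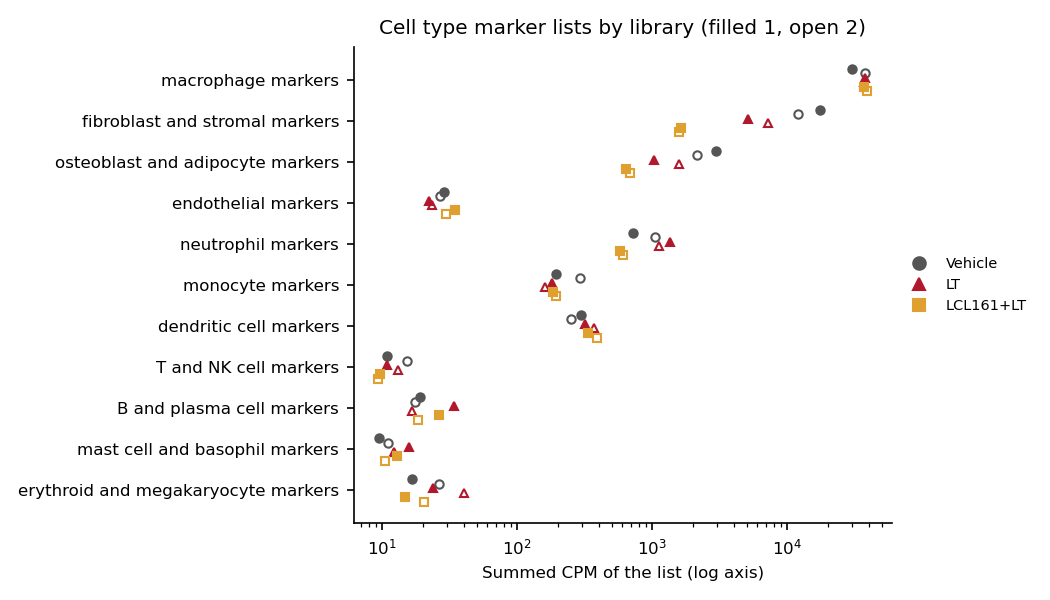
Summed CPM of each cell type marker list (horizontal log axis) in the 6 libraries, with filled symbols for replicate 1 and open symbols for replicate 2. Summed macrophage markers lie at 30347 to 37774 CPM in the vehicle and LT libraries, and stromal markers are lower with LT (5092 and 7219 CPM) than in vehicle (17347 and 12012 CPM).

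The libraries also fell apart in a way that crosses the groups. Of 9202 genes with a mean of at least 10 CPM, 308 were at least 2-fold higher in replicate 2 of LCL161 plus LT than in replicate 1, and 4 were at least 2-fold lower. In these 308 genes the libraries vehicle 1, vehicle 2 and LCL161 plus LT 1 were low, and LT 1, LT 2 and LCL161 plus LT 2 were high: the median log2 difference was 1.74 for LT minus vehicle, -0.04 for LCL161 plus LT 1 minus vehicle and -0.30 for LCL161 plus LT 2 minus LT. Both LT libraries lay above both vehicle libraries in 301 of the 308, and 250 were called higher. An example is Lamp1, a membrane protein of lysosomes, at 428 and 531 CPM in vehicle, 2215 and 1958 CPM with LT and 642 and 1975 CPM with LCL161 plus LT. The survival factor Mcl1 stood at 49.8 and 56.9, 520.2 and 497 and 147 and 449 CPM in the same order of groups. Cebpb, a transcription factor of inflammatory macrophages, stood at 2.45 and 3.03, 132 and 129 and 7.88 and 92.4 CPM.

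Many transcripts of these genes, but not all, start with GC-rich sequence. The median GC content of the first 300 transcript bases was 74.8% in the 304 of the 308 genes with a value, against 57.7% over all tested genes with one. Of the 308 genes, 146 were over 75%. Of the 951 tested genes with more than 75% GC there, 36.8% were called higher and 6.41% lower, whereas of the 17550 genes at or below 75% the shares were 11.6% and 10.8%. Genes in either set number 1113 and include 479 (19.9%) of those called higher and 63 (3.16%) of those called lower. The part of this library pattern in the LT minus vehicle difference of these genes was not tested. A gene from either set is marked below as belonging to the GC-rich or library-split genes. Outside both sets 1931 genes were called higher and 1928 lower.

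**Figure D2:**
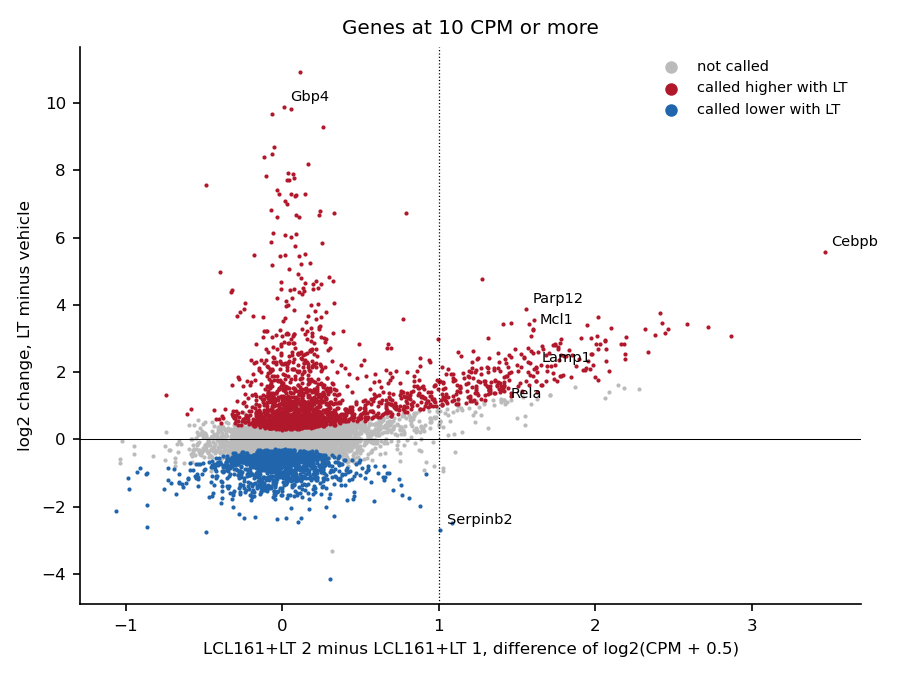
Each point is a gene with a mean of at least 10 CPM, with the difference between the replicates of LCL161 plus LT on the horizontal axis (log2, replicate 2 minus replicate 1) and the log2 change, LT minus vehicle, on the vertical axis. To the right of the dotted line at 1 lie the 308 genes of which 250 were called higher with LT.

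With LT for 24 h, all 11 guanylate-binding proteins and all 14 tested immunity-related GTPases rose, as did 16 of 18 class I heavy chain genes with B2m, 11 of 17 class II genes, 14 of 22 complement genes and the chemokines Cxcl9 and Cxcl10. Among the lists with more decreases, 27 of 36 genes of mitosis fell, 13 of 22 matrix proteases and their inhibitors and 15 of 17 stromal markers. Large increases outnumbered large decreases: 542 genes (2.88% of those tested) rose at least 4-fold and 113 (0.601%) fell at least 4-fold. At a threshold of 16-fold the counts were 107 (0.569%) and 3 (0.0159%). In all, 2410 genes (12.8%) were higher and 1991 (10.6%) lower, and 1308 (6.95%) and 798 (4.24%) of those tested passed with a change of at least 2-fold. Both LT libraries lay above both vehicle libraries in 29.6% of all genes tested and below them in 33.8%. For each of the 4401 called genes the groups did not overlap.

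The median change of all genes tested was -0.039, with the 5th percentile at -1.21 and the 95th at 1.54. Scaling by total counts in place of TMM moved that median to -0.229 and turned the split of calls from 54.8% higher to 33% higher (1836 higher, 3729 lower). Counts of gene groups are given with both scalings where they differ by over 1.5 times or the median changes sign. Where a gene group is given below with 0 calls in a direction by edgeR, DESeq2 and limma voom also gave 0, and edgeR gave 0 at an unadjusted p under 0.05 except for 2 lower in the constitutive proteasome and 1 lower in glycolysis. Genes called higher took 16.5% and 17.3% of reads in the vehicle libraries and 34.7% and 34.1% with LT. Those called lower took 20.7% and 17.9% in vehicle and 8.91% and 10% with LT. Among 4039 genes under 1 CPM in vehicle, 209 rose and 16 fell, and 154 of the 209 rose at least 4-fold. Among 1593 genes at 100 to 1000 CPM, 300 (18.8%) rose and 362 (22.7%) fell. Counts of each gene group below are to be read beside these shares and those over all genes tested, 12.8% higher and 10.6% lower. A group near these shares is given as a count and not as a result about the group.

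**Figure D3:**
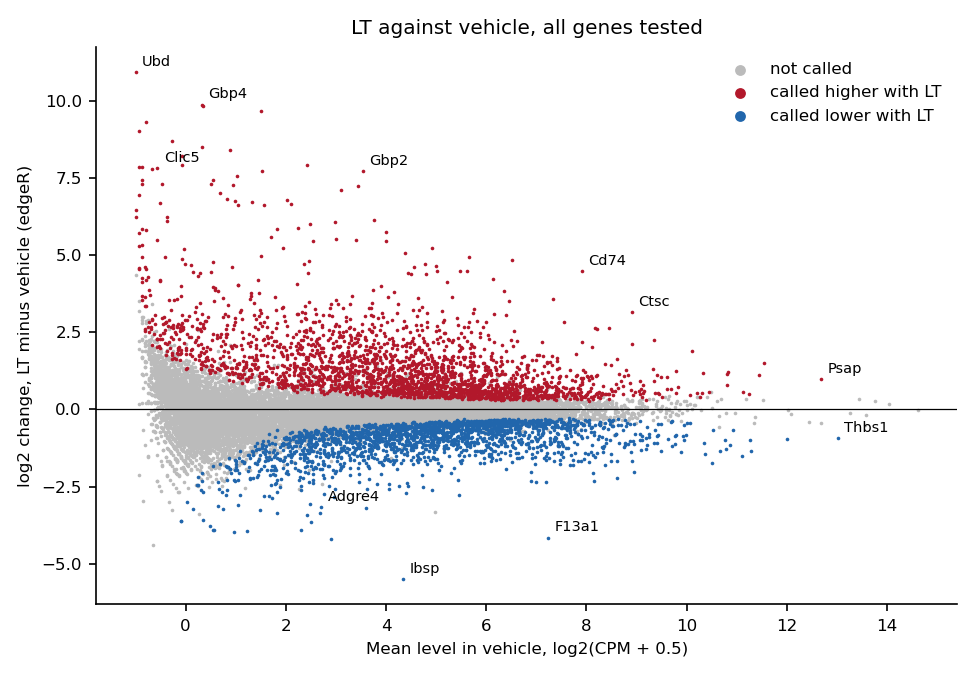
Mean vehicle level, log2(CPM + 0.5), on the horizontal axis and log2 change, LT minus vehicle, on the vertical axis for the 18812 genes tested. Red points were called higher and blue points lower. Increases reach above 8 on the log2 scale at low vehicle levels, and 3 decreases pass 16-fold.

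The 20 largest increases, chosen by the size of the fitted change, included 6 guanylate-binding proteins and 3 immunity-related GTPases. All 20 kept their call when any library was left out. Ubd, a ubiquitin-like modifier at chr17:37193892-37196095, plus strand, was listed with 0 reads in both vehicle libraries and stood at 14.2 and 14.5 CPM with LT. Against a floor of 3 reads over the vehicle group, it was at least 192-fold higher with LT. Gbp4, a large GTPase that acts on membranes of intracellular pathogens, lay at chr5:105115767-105139586, minus strand, and went from 0.926 and 0.595 CPM in vehicle to 699.7 and 766 CPM with LT (log2 change 9.88, SE 0.19, adjusted p = 2e-07). Gbp8 and Gbp9 have exons on the same strand that overlap its own. Cxcl9, a chemokine for CXCR3-bearing T cells (chr5:92321347-92328079, minus strand), went from 0.787 and 0.757 to 611 and 822 CPM (log2 change 9.84, SE 0.23, adjusted p = 3.18e-07). Every vehicle value of these genes was below 1 CPM, and every LT value was above 10 CPM.

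Receptors and secreted proteins were also among the 20. Tlr12, a Toll-like receptor that recognises profilin of Toxoplasma, had 3 reads in vehicle and 1785 with LT, a ratio of 694 (95% interval 237 to 3369, counting error only). Ccl8, a chemokine of the monocyte-attracting group, had 2 and 461 reads, a ratio of 269 (74.0 to 2227). Sectm1a, a secreted and membrane ligand that can costimulate T cells, had 1 and 260 reads, a ratio of 303 (54.0 to 12026). For these 3 genes the vehicle group held 1 to 3 reads, and the upper ends of the intervals are far from the ratios. Clic5, a chloride intracellular channel protein, went from 0.139 and 0.216 to 43.1 and 39.5 CPM (log2 change 7.83, SE 0.20, adjusted p = 5.31e-07). Serpina3g, an inhibitor of cysteine proteases, went from 2.69 and 2.05 to 463 and 551 CPM (log2 change 7.73, SE 0.18, adjusted p = 3.18e-07), and its neighbour Serpina3f from 0.648 and 1.19 to 132 and 154 CPM. The microRNA gene Mir6381 lies inside Gbp2 on the opposite strand, so its increase of 8.2 cannot be told apart from reads of Gbp2 where strand was not used.

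**Figure D4:**
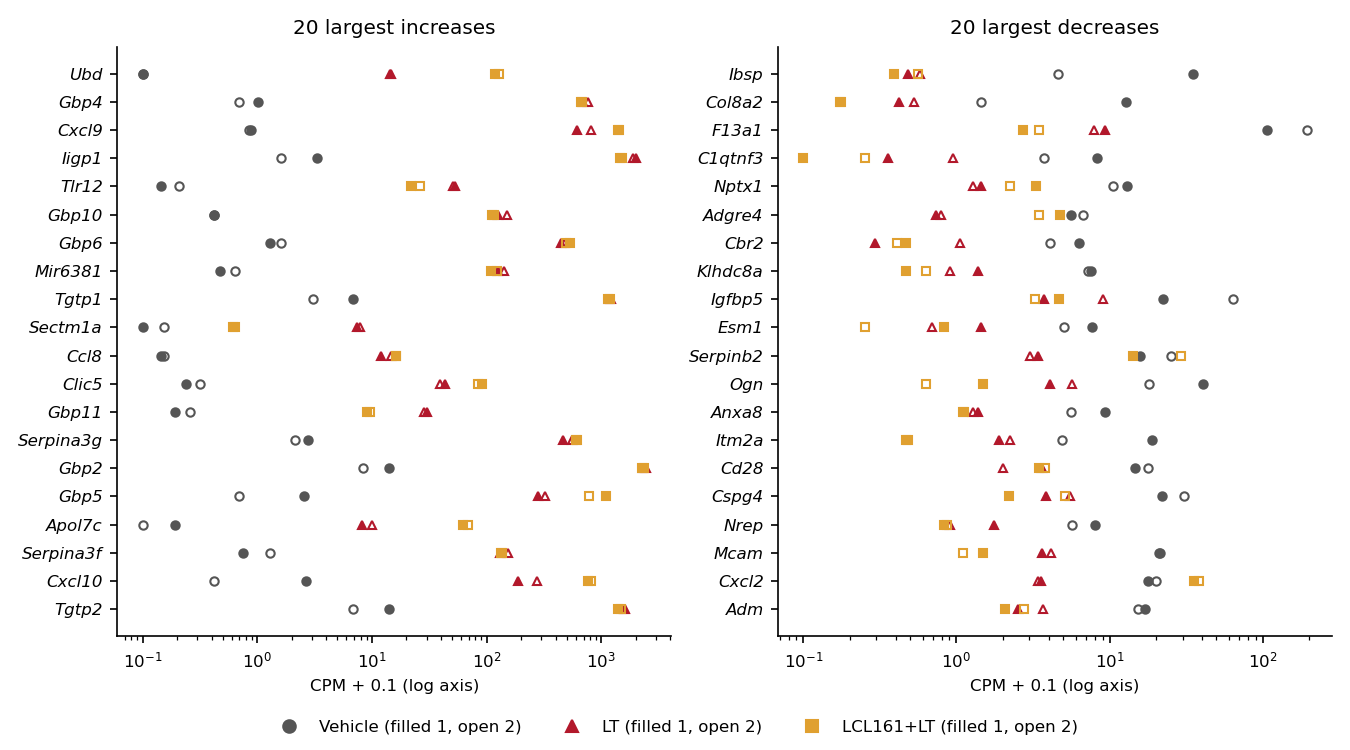
CPM + 0.1 on a log axis in the 6 libraries for the 20 largest increases (left) and the 20 largest decreases (right), with filled symbols for replicate 1 and open symbols for replicate 2. On the left the vehicle and LT libraries are far apart for every gene, and on the right the replicates of several genes, such as Ibsp, lie far from each other.

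The sequences around the starts of some of these genes are shown so that letters shared by genes that rose together can be read. RefSeq promoter windows ran from 250 bases before to 50 bases after the start (GRCm38.p6). They were found for 12300 of the 18812 tested genes (65.4%). Of the 20 largest increases, 13 had their windows searched as a group. The others, Iigp1 among them, were left out of that group, which does not show that they lack a window. Matches to 3 letter patterns were searched on both strands: GAAA, any 2 bases and GAAA again for the interferon-stimulated response element, TTCNNNGAA for the gamma-activated site, and GGG, any 2 bases and TTTCC for NF-kB. A stretch can match more than 1 of them, and each match was counted. Over all 32851 windows the patterns were found in 3.44%, 8.3% and 1.63%. The 14 windows of the 13 genes held them in 6, 6 and 3 windows (42.9%, 42.9% and 21.4%). Serpina3f has overlapping windows that hold the same gamma-activated match, which is counted in each. The genes were chosen for their change and are only 13 of the 20, so these shares are a description. They are not a matched comparison with all windows. A match is letters in a window and not a shown binding site. In the 6 windows below, read 5′ to 3′ on the strand of the gene, capitals mark the matches.
Ubd (chr17:37193642-37193941, plus strand): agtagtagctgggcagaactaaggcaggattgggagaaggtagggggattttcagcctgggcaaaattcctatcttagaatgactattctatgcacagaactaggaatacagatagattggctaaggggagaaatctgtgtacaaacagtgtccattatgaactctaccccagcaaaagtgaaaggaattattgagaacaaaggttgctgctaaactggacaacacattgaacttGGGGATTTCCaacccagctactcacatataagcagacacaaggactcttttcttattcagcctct
Gbp2 (chr3:142620413-142620712, plus strand): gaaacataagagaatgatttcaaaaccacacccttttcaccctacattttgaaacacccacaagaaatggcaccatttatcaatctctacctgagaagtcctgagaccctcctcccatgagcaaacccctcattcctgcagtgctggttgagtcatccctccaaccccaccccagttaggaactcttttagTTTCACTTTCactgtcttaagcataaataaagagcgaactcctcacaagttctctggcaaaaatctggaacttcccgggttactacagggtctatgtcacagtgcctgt
Gbp5 (chr3:142496684-142496983, plus strand): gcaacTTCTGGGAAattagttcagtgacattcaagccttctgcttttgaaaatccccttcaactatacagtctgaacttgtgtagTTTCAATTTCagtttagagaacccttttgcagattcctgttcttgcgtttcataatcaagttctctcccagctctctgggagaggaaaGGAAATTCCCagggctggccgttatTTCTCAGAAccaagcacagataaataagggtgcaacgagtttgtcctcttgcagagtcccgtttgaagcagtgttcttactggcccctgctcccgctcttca
Tgtp1 (chr11:48992197-48992496, minus strand): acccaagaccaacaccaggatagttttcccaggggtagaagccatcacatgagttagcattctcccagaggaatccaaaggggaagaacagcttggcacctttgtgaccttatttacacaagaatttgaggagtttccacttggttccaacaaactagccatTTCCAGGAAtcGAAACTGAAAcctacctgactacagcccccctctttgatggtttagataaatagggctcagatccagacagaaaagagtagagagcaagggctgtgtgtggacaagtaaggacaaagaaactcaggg
Cxcl10 (chr5:92348840-92349139, minus strand): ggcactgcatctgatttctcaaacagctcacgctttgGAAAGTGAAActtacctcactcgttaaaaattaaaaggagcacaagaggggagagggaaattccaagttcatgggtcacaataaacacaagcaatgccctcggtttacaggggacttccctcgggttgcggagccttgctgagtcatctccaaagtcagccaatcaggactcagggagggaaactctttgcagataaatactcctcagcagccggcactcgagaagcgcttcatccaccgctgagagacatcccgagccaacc
Irf1 (chr11:53769764-53770063, plus strand): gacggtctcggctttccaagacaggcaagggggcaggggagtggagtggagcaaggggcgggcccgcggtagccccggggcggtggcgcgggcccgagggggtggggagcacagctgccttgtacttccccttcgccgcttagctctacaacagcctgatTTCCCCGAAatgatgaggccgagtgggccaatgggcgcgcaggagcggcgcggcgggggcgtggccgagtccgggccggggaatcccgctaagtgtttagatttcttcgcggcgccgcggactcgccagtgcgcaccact

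Matches were counted from the RefSeq start. For some genes, such as Gbp5 and Tgtp1, it differs from the start of the GENCODE position given in the text. Gbp5 held an interferon-stimulated response element match at -165, gamma-activated site matches at -245 and -52 and an NF-kB match at -77. Tgtp1 held the first of these patterns at -77 and the second at -88, and its neighbour Tgtp2 at -70 and -81. In Gbp2 the interferon-stimulated pattern was at -59, in Cxcl10 at -213. Ubd held only the NF-kB pattern, at -15, and Irf1 only the gamma-activated pattern, at -90. None of the 3 patterns was in the windows of Cxcl9, Tlr12, Ccl8 and Clic5. For every gene, an absent pattern says only that its letters are not in these 300 bases. Other spellings of a site were not searched.

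Of 29 genes of the lymphotoxin beta receptor, its adaptors and NF-kB, 11 rose and 0 fell, with a median change of 0.39, where 12.8% of all genes tested were higher. Ltbr (chr6:125306571-125313885, minus strand) stood at 74.4 and 76.8 CPM in vehicle and 101 and 98.2 CPM with LT (log2 change 0.39, SE 0.10, adjusted p = 0.0259), and lost its call when any 1 of the 4 libraries was left out and with total-count scaling. Map3k14, which encodes NIK, stood at 16.5 and 17.4 and 18 and 17.4 CPM and did not pass the test (adjusted p = 0.747). Nfkb2 stood at 67.2 and 70.8 and 76.7 and 85.3 CPM (adjusted p = 0.172), and Relb at 31.1 and 35.4 and 46.2 and 50.3 CPM (log2 change 0.54, SE 0.15, adjusted p = 0.0378), a call lost on the same terms as that of Ltbr. Both LT libraries lay above both vehicle libraries in Ltbr, Nfkb2 and Relb, as they did in 29.6% of all genes tested.

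The largest change in this list was in a receptor of the same family. Tnfrsf14, which encodes HVEM, a receptor for lymphotoxin alpha and LIGHT, went from 4.17 and 4.38 to 22.9 and 27.1 CPM (log2 change 2.55, SE 0.15, adjusted p = 2.71e-05). The inhibitor of apoptosis Birc3 (cIAP2) rose from 40 and 40.5 to 74.8 and 75.4 CPM (log2 change 0.90, SE 0.09, adjusted p = 0.000438), and Tnfrsf1a, the main tumour necrosis factor receptor, from 122 and 134 to 277 and 279 CPM (log2 change 1.11, SE 0.09, adjusted p = 0.000198). The inhibitor Nfkbie rose by 0.85 and the deubiquitinase Cyld by 0.73. Groups did not overlap in any of them, which held for every called gene. Nfkbia, Tnfaip3 and Rel did not pass the test, with changes of 0.28, 0.08 and 0.09. Bcl3 and Otulin, called higher, belong to the GC-rich or library-split genes, as does Rela, which was not called. Without vehicle 1 the list counted 5 higher and without LT 2 it counted 7, while with no filter on low counts it counted 17.

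**Figure D5:**
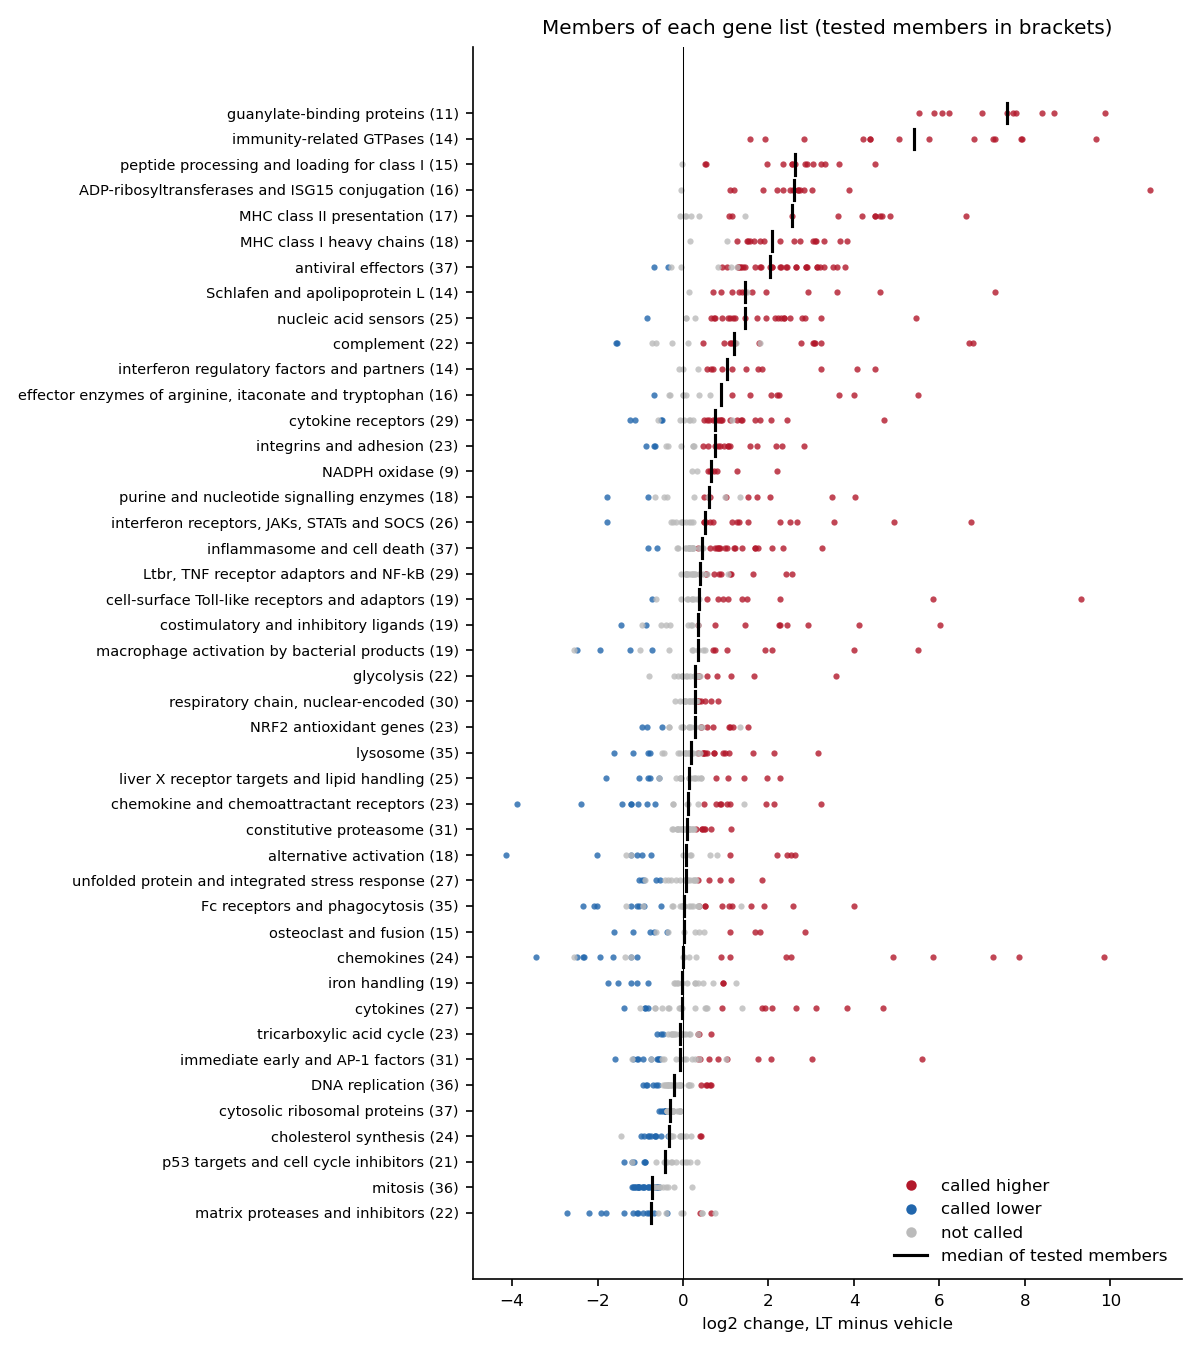
Log2 change, LT minus vehicle, of each tested member of the pathway lists (horizontal axis), 1 row per list in the order of the medians (black bars), with red for called higher, blue for called lower and grey for not called. Guanylate-binding proteins (median 7.57) and immunity-related GTPases (5.40) stand at the top, and matrix proteases (-0.74) and mitosis (-0.73) at the bottom.

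Interferon transcripts themselves were close to absent. Ifng had 1 read in each vehicle library and 0 in each LT library. Ifnb1 stood at 0.0463 and 0.108 CPM in vehicle, 0.191 and 0.267 CPM with LT and 0.7297 and 0.996 CPM with LCL161 plus LT, and did not pass the test for LT against vehicle (adjusted p = 0.231). The other 19 interferon genes of the list and Ifng were not tested, and those 19 had 0 to 3 reads in any vehicle or LT library. RNA was taken at 24 h only, and earlier transcripts or proteins in the medium were not measured.

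Downstream of interferon receptors, 15 of 26 genes of the receptors, JAKs, STATs and their inhibitors rose and 1 fell, with a median of 0.52. Stat2 rose by 2.28 and Stat3, which transmits IL-6 and IL-10 signals, by 1.53. The feedback inhibitor Socs1 went from 2.04 and 0.919 to 163 and 160.2 CPM (log2 change 6.74, SE 0.38, adjusted p = 2.46e-05), the largest change in the list. Socs3 rose from 13.4 and 12.9 to 76.9 and 90.1 CPM, whereas Socs2, which restrains growth hormone signals, fell from 22.2 and 23.2 to 5.87 and 7.27 CPM (log2 change -1.78, SE 0.16, adjusted p = 0.000251). Jak2 rose by 3.54 and is among the library-split genes (8.01 and 6.92, 86.6 and 87.04 and 43.9 and 135 CPM in vehicle, LT and LCL161 plus LT). The receptor chains Ifngr1, Ifngr2 and Ifnar1 did not pass the test, with changes of -0.29, -0.03 and -0.16. With total-count scaling 4 genes of this list were lower.

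Of 14 interferon regulatory factors and partner factors, 11 rose and 0 fell, with a median of 1.03. Irf1 (chr11:53770014-53778374, plus strand), a factor induced by interferon, went from 42.2 and 45.6 to 946 and 1034 CPM (log2 change 4.5, SE 0.12, adjusted p = 5.92e-07). Batf2 rose by 4.07, Irf7, which drives type I interferon genes, by 3.22, and Irf8, a factor of the macrophage lineage, by 1.75. Irf3 and Irf4 did not pass the test, at -0.09 and -0.00.

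The GTPases that act against intracellular pathogens rose without exception among those tested. All 11 guanylate-binding proteins were called higher, with a median change of 7.57 and a smallest change of 5.51 in Gbp7. Gbp2 (chr3:142620602-142638008, plus strand) went from 14.03 and 8.32 to 2292 and 2449 CPM (log2 change 7.72, SE 0.26, adjusted p = 1.99e-06), while Gbp5 (chr3:142493978-142522344, plus strand), which promotes inflammasome assembly, went from 2.45 and 0.595 to 279 and 321 CPM (log2 change 7.57, SE 0.44, adjusted p = 2.84e-05). All 14 tested immunity-related GTPases rose, with a median of 5.40, and Irgc1 was not tested. Tgtp1 (chr11:48985327-48994172, minus strand) went from 6.76 and 2.97 to 1159 and 1209.8 CPM (log2 change 7.91, SE 0.34, adjusted p = 6.38e-06). Iigp1 (Irga6), which attacks vacuoles of parasites, went from 3.19 and 1.51 to 2001 and 1903 CPM (log2 change 9.67, SE 0.29, adjusted p = 1.13e-06), and the regulatory member Irgm1 from 77.1 and 62.8 to 1286 and 1318 CPM (log2 change 4.22, SE 0.13, adjusted p = 1.35e-06). In each of these 5 genes vehicle 1 lay above vehicle 2, and both lay far below the LT libraries.

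Of 37 tested antiviral effectors of the type I interferon programme 30 rose and 2 fell, with a median of 2.04. Without vehicle 2 and without LT 1 edgeR called 0 lower, with 1 and 2 at an unadjusted p under 0.05. Samhd1, which depletes nucleotides needed by viruses, went from 87.2 and 87.99 to 1023 and 976 CPM (log2 change 3.51, SE 0.10, adjusted p = 7.7e-07). Vehicle libraries differed from each other in many of these genes: Ifit1 stood at 11.8 and 1.95 CPM in vehicle and 61.8 and 75.7 CPM with LT, and Mx1 at 3.06 and 0.2702 and 13.5 and 18.7 CPM. Isg15, a ubiquitin-like modifier, stood at 14.7 and 3.405 and 51.6 and 63.3 CPM (log2 change 2.64, SE 0.50, adjusted p = 0.00857). Vehicle 1 was several-fold above vehicle 2 in these 3 genes, and LT exceeded both. Ifit3, at 30.5 and 3.51 and 118 and 138 CPM (adjusted p = 0.0235), lost its call without LT 1 or LT 2. Ifitm2 fell by 0.35 on the log2 scale, a call lost with any 1 of the 4 libraries left out.

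Of 25 nucleic acid sensors and their adaptors, 21 rose and 1 fell, with a median of 1.44. Zbp1, a sensor of Z-form nucleic acid that can start necroptosis, went from 8.61 and 2.11 to 221 and 262 CPM (log2 change 5.46, SE 0.49, adjusted p = 0.000262). Tlr9, the receptor for bacterial DNA, rose by 2.85 and Tmem173 (STING) by 1.95, whereas Tlr7, a receptor for single-stranded RNA, fell from 45.5 and 50.7 to 27.9 and 25.9 CPM (log2 change -0.84, SE 0.11, adjusted p = 0.002). The neighbouring Ifi203, Ifi204, Ifi205 and Mndal rose by 2.30 to 3.24. They are close paralogs, and how reads with several matches were counted is not known.

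Of 16 ADP-ribosyltransferases and genes of ISG15 conjugation 15 rose, with a median of 2.59, and Parp1, the DNA repair enzyme, was the member not called (-0.05). Parp14 went from 39.4 and 29.7 to 232 and 259 CPM (log2 change 2.83, SE 0.16, adjusted p = 2.11e-05) and its partner ligase Dtx3l from 51.8 and 46.6 to 321 and 311 CPM (log2 change 2.68, SE 0.10, adjusted p = 3.74e-06). Parp12 and Usp25, also higher, belong to the GC-rich or library-split genes. Among 14 Schlafen and apolipoprotein L genes 12 rose, with a median of 1.46, led by Apol7c, which had 2 reads in vehicle and 313 with LT (ratio 183, 50.1 to 1514). Slfn2, a regulator of immune cell quiescence, went from 121 and 121 to 379 and 359 CPM (log2 change 1.61, SE 0.09, adjusted p = 2.93e-05).

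Genes of class I presentation, from the immunoproteasome to the heavy chain, were mostly called higher. Of 18 class I heavy chain genes with B2m 16 rose and 0 fell (median 2.08), and of 15 genes of peptide processing and loading 14 rose and 0 fell (median 2.62). Tap1, a subunit of the peptide transporter, went from 33.98 and 29.9 to 682 and 755 CPM (log2 change 4.49, SE 0.14, adjusted p = 1.27e-06). Nlrc5, the transactivator of class I genes, rose from 18.6 and 13.4 to 179.8 and 223 CPM (log2 change 3.65, SE 0.18, adjusted p = 1.39e-05), and the non-classical molecule H2-T23 (Qa-1) from 83.9 and 78.2 to 1158 and 1152 CPM (log2 change 3.83, SE 0.12, adjusted p = 1.27e-06). Changes of the classical chains were smaller, at 2.26 for H2-K1 and 1.49 for H2-D1, genes that already had 615 and 682 and 2718 and 3273 CPM in vehicle. The class I genes are near-identical in parts, and their counts can be split or shared. The 3 catalytic subunits of the immunoproteasome, Psmb8, Psmb9 and Psmb10, rose by 3.05, 3.33 and 2.9. Of 31 genes of the constitutive proteasome 7 rose and 0 fell (median 0.10). Psma5 rose by 1.12 and Psmb2 by 0.65. That list counted 3 to 4 higher without vehicle 1, vehicle 2 or LT 2, and with total-count scaling its median was -0.09, with 3 higher and 4 lower.

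Of 17 class II genes 11 rose and 0 fell, with a median of 2.56. Ciita (chr16:10480059-10528418, plus strand), the master regulator of class II transcription, had 1.53 and 1.62 CPM in vehicle and 154 and 159 CPM with LT. H2-Ab1, a class II beta chain, went from 64.9 and 118 to 2697 and 2524 CPM (log2 change 4.84, SE 0.29, adjusted p = 3.31e-05), and Cd74, the invariant chain, from 176 and 305 to 5416 and 5321 CPM (log2 change 4.48, SE 0.26, adjusted p = 2.96e-05). Vehicle 2 was above vehicle 1 in H2-Ab1 and Cd74, and LT was far above both. H2-DMa, which helps load peptides, rose by 4.62 and H2-Oa, its inhibitor, by 4.18. Rfx5, Rfxap and Rfxank, which bind class II promoters, did not pass the test, with changes of 0.37, -0.08 and 0.18, and Rfxap is in the GC-rich or library-split set.

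Of 19 costimulatory and inhibitory ligands 9 rose and 2 fell, with a median of 0.35. Slamf8, a receptor of the SLAM family on macrophages, went from 5.14 and 5.08 to 319 and 346 CPM (log2 change 6.02, SE 0.12, adjusted p = 2e-07). The costimulatory ligand Cd86 rose from 10.6 and 12.6 to 57.8 and 51.3 CPM (log2 change 2.24, SE 0.13, adjusted p = 2.38e-05) and Cd40, which receives T cell help, from 5.601 and 3.999 to 32.4 and 41.5 CPM (log2 change 2.93, SE 0.19, adjusted p = 5.34e-05). Cd276 (B7-H3) fell from 22.9 and 17.4 to 8.17 and 6.63 CPM (log2 change -1.45, SE 0.20, adjusted p = 0.00199). Cd80 fell by 0.86 on the log2 scale, a call lost without vehicle 1, LT 1 or LT 2. The count of higher genes was 5 with any 1 of the 4 libraries left out, that of lower genes was 1 without vehicle 1, LT 1 or LT 2, and total-count scaling gave 5 lower.

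Chemokines split into groups that rose and groups that fell. Of 24 tested 9 rose and 8 fell. Their median was 0.00, with -0.19 by total-count scaling, 0.18 without LT 1 and -0.40 without LT 2. Cxcl10, a ligand of CXCR3 like Cxcl9, went from 2.55 and 0.324 to 186 and 274 CPM (log2 change 7.26, SE 0.53, adjusted p = 9.61e-05), and Ccl5, a chemokine for T cells and monocytes, from 2.92 and 3.13 to 141 and 209.6 CPM (log2 change 5.86, SE 0.24, adjusted p = 5.68e-06). Cxcl16, a membrane-bound chemokine, rose by 1.09. Neutrophil-attracting Cxcl2 fell from 17.7 and 19.9 to 3.45 and 3.31 CPM (log2 change -2.47, SE 0.14, adjusted p = 2.85e-05), Ccl9 from 155 and 135 to 28.6 and 28.3 CPM (log2 change -2.35, SE 0.13, adjusted p = 2.01e-05) and Ccl6, its neighbour in the same family, by 1.64 on the log2 scale. The homeostatic chemokine Cxcl12, which is also in the stromal list, fell from 369.8 and 198 to 47.9 and 66.2 CPM (log2 change -2.31, SE 0.29, adjusted p = 0.00141). Ccl3 fell by 1.08 and Pf4, platelet factor 4, by 1.22, whereas Ccl4 was at 13.1 and 9.95 and 8.93 and 13.8 CPM and did not pass the test.

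Among 23 chemokine and chemoattractant receptors 9 rose and 8 fell (median 0.12, or -0.07 with total-count scaling). Fpr2, a receptor for formylated peptides, rose by 3.22. Gpr183, a receptor for oxysterols, fell from 22.3 and 19.6 to 4.98 and 3.101 CPM (log2 change -2.39, SE 0.22, adjusted p = 0.000306), and Cx3cr1, the fractalkine receptor, from 78 and 86.4 to 32.3 and 29.2 CPM (log2 change -1.42, SE 0.11, adjusted p = 0.000147). Cxcr4, the receptor for Cxcl12, fell by 1.05.

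Of 27 cytokine genes 8 rose and 4 fell, with a median of -0.03 (0.22 to 0.31 without vehicle 1, vehicle 2 or LT 2, and 0.15 without LT 1). Tnfsf10, the death ligand TRAIL, went from 0.926 and 0.216 to 14.4 and 16.2 CPM (log2 change 4.68, SE 0.36, adjusted p = 0.00013). Il27, a subunit of IL-27, rose by 3.84 and Il18bp, the soluble antagonist of IL-18, by 3.12. Tnf went from 22.03 and 25.1 to 82.6 and 96.1 CPM (log2 change 1.92, SE 0.13, adjusted p = 5.26e-05). Tnfsf13b (BAFF), a survival factor for B cells, rose by 2.65. The macrophage growth factor Csf1 fell by 0.83 and Hbegf, a ligand of the epidermal growth factor receptor, by 1.39. Il1b, at 10.1 and 12.5 and 16.3 and 16.1 CPM, and Il6, at 0.694 and 0.865 and 0.5105 and 0.267 CPM, did not pass the test (adjusted p = 0.0702 and 0.226).

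Of 29 cytokine receptors 18 rose and 4 fell, with a median of 0.75. Il12rb1, a chain of the receptors for IL-12 and IL-23, went from 5.05 and 4.27 to 118 and 125 CPM (log2 change 4.7, SE 0.16, adjusted p = 2.22e-06), and Il2rg, the common gamma chain, from 64.02 and 66.9 to 352 and 351 CPM (log2 change 2.43, SE 0.10, adjusted p = 4.75e-06). Il15ra rose by 2.07 and the beta chains Csf2rb and Csf2rb2 by 1.27 and 1.35. Tnfrsf10b, the mouse receptor for TRAIL, fell by 1.13. The count was 11 higher and 1 lower without vehicle 1, and 1 lower without LT 1 or LT 2.

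Enzymes of arginine, itaconate and tryptophan metabolism rose in 8 of 16 cases and fell in 1, with a median of 0.90. Acod1, which makes itaconate, went from 9.86 and 10.2 to 424 and 481 CPM (log2 change 5.5, SE 0.13, adjusted p = 3.18e-07). Nos2 (chr11:78920787-78960254, plus strand), inducible nitric oxide synthase, went from 0.555 and 0.324 to 5.74 and 8.77 CPM (log2 change 4.01, SE 0.32, adjusted p = 0.000142), with both LT libraries below 10 CPM. Kynu, kynureninase, rose by 3.66, Ass1, which regenerates arginine, by 2.25 and Arg1, arginase, from 0.926 and 1.41 to 5.998 and 4.76 CPM (log2 change 2.21, SE 0.28, adjusted p = 0.00152). Arg2 fell by 0.68, a call lost without vehicle 2, LT 1 or LT 2. Of 9 genes of the NADPH oxidase 7 rose (median 0.65), among them the catalytic subunit Cybb at 804 and 955 and 2102 and 2108 CPM (adjusted p = 0.000324). Rac1 is among the library-split genes, and without vehicle 1 the count was 3.

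Of 19 genes typical of macrophages exposed to bacterial products 7 rose and 4 fell (median 0.34). Besides Acod1, Tnf and Nos2, Saa3, a serum amyloid protein, rose by 1.02, while Ptgs2 (cyclooxygenase) fell from 117 and 127 to 46.8 and 55.98 CPM (log2 change -1.24, SE 0.11, adjusted p = 0.000305). Of 18 genes of alternative activation 5 rose and 6 fell (median 0.08, or -0.11 with total-count scaling, and 3 higher without vehicle 1 or LT 1). The mannose receptor Mrc1 fell from 129 and 109 to 28.3 and 30.6 CPM (log2 change -2.02, SE 0.14, adjusted p = 6.56e-05), while the transglutaminase Tgm2 rose from 276 and 299 to 1784 and 1764 CPM (log2 change 2.63, SE 0.11, adjusted p = 5.98e-06). Egr2, a transcription factor of alternative activation, fell by 1.08.

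Toll-like receptors at the cell surface and their adaptors rose in 9 of 19 cases and fell in 1 (median 0.37). Cd180, an atypical receptor of this family on B cells and myeloid cells, went from 12.04 and 10.8 to 55.01 and 55.98 CPM (log2 change 2.28, SE 0.12, adjusted p = 1.9e-05), and its partner Ly86 rose by 1.5. Tlr4, which senses endotoxin, rose by 0.94, and its coreceptor Cd14 fell from 192 and 213 to 119 and 126 CPM (log2 change -0.73, SE 0.12, adjusted p = 0.00433), a call lost without LT 1. Tlr2 was at 139 and 147 and 129.5 and 149 CPM and did not pass the test.

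Of 35 Fc receptors and phagocytosis genes 10 rose and 8 fell, with a median of 0.03 (-0.16 with total-count scaling, and 5 lower without vehicle 2 or LT 2). Activating Fc receptors were among those that rose. Fcgr4 went from 14.9 and 14.1 to 237 and 231 CPM (log2 change 4.01, SE 0.10, adjusted p = 4.92e-07). Fcgr1 went from 33.4 and 32.3 to 197 and 195 CPM (log2 change 2.57, SE 0.10, adjusted p = 3.79e-06). Fcgr2b, the inhibitory receptor, stood at 61.3 and 73.5 and 72.6 and 59.99 CPM and did not pass the test. The dectin gene Clec7a rose by 1.58 and the receptor kinase Mertk by 1.07. Gas6, a ligand of Mertk, fell from 268 and 293 to 64.96 and 68.1 CPM (log2 change -2.08, SE 0.11, adjusted p = 1.45e-05), and the scavenger receptor-like Fcrls from 128.4 and 126 to 25.4 and 24.9 CPM (log2 change -2.34, SE 0.10, adjusted p = 6.79e-06).

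Complement genes rose in 14 of 22 cases and fell in 2, with a median of 1.19 (4 lower with total-count scaling). Cfb, factor B of the alternative pathway, went from 3.703 and 3.46 to 377 and 415 CPM (log2 change 6.78, SE 0.16, adjusted p = 3.18e-07). C4b rose from 0.185 and 0.216 to 18.7 and 23.9 CPM (log2 change 6.69, SE 0.27, adjusted p = 4.7e-06) and C3, on which all pathways converge, from 68.97 and 72.9 to 554 and 645 CPM (log2 change 3.08, SE 0.12, adjusted p = 4.04e-06). The C1q chains C1qa, C1qb and C1qc rose by 1.13, 1.21 and 1.16, and the inhibitor Serping1 by 3.04. Cd59a, which blocks the membrane attack complex, fell by 1.54 and Masp1, a protease of the lectin pathway, by 1.56.

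Of 37 genes of inflammasomes and cell death 18 rose and 2 fell, with a median of 0.45. The inflammatory caspases Casp1 and Casp4 went from 26.9 and 28.6 to 115 and 122 CPM (log2 change 2.09, SE 0.10, adjusted p = 1.04e-05) and from 5.97 and 3.73 to 25.5 and 24.01 CPM (log2 change 2.34, SE 0.20, adjusted p = 0.000202). Gsdmd, which forms the pyroptotic pore, rose by 1.69, the adaptor Pycard by 1.39 and Mlkl, the executor of necroptosis, by 1.76. Casp8, Casp9 and Bax did not pass the test, with changes of 0.24, 0.15 and -0.14. Pmaip1 (Noxa) fell by 0.82, a call lost without LT 1, and Bcl2 by 0.61, a call lost with any 1 of the 4 libraries left out.

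Lysosomal genes rose in 14 of 35 cases and fell in 4 (median 0.19). The count of higher genes was 6 without vehicle 1, 8 without LT 1 and 9 without LT 2, and total-count scaling gave 8 higher and 7 lower. The protease Ctsc, which activates serine proteases of granules, went from 478 and 487 to 4489 and 4124 CPM (log2 change 3.16, SE 0.11, adjusted p = 2.22e-06), and Ctsh rose by 1.63. Ctsl, another cathepsin, fell by 0.83, and Atp6v0d2, a proton pump subunit of macrophages and osteoclasts, by 1.61.

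Cholesterol synthesis genes fell in 10 of 24 cases and rose in 2 (median -0.32), with 5 lower without LT 2. The 2 increases, in Tm7sf2 and Ebp, lost their calls with any 1 of the 4 libraries left out and with total-count scaling. Hmgcs1, which makes the precursor of mevalonate, went from 112 and 120.1 to 71.6 and 60.2 CPM (log2 change -0.81, SE 0.12, adjusted p = 0.00281), and Idi1, Cyp51 and Sqle fell by 0.91, 0.75 and 0.65. Of 25 liver X receptor targets and lipid genes 5 rose and 5 fell (median 0.13, -0.06 with total-count scaling and -0.01 without vehicle 1, and 2 lower without LT 1). Acsl1, which activates fatty acids, rose by 2.26, the cholesterol exporter Abcg1 by 1.43 and Ch25h, which makes an oxysterol, by 1.97. Scd1, a fatty acid desaturase, fell from 16.5 and 13.2 to 3.57 and 4.92 CPM (log2 change -1.8, SE 0.22, adjusted p = 0.00132).

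Of 22 glycolysis genes 8 rose and 0 fell, with a median of 0.29 (4 or 5 higher without vehicle 1, vehicle 2 or LT 2, and 5 higher and 3 lower with total-count scaling). The myeloid hexokinase Hk3 went from 149.6 and 173 to 1914 and 1960.3 CPM (log2 change 3.59, SE 0.13, adjusted p = 3.06e-06), and Pfkfb3, an activator of phosphofructokinase, rose by 1.66. Among 30 nuclear-encoded genes of the respiratory chain 11 rose and 0 fell (median 0.27). That count was 2 to 4 when any 1 library was left out, and total-count scaling gave 3 higher and 1 lower. Ndufs3, a subunit of complex I, rose by 0.81 and Sdhb of complex II by 0.66. Calls in the next list were near the shares over all genes tested, 12.8% higher and 10.6% lower. The tricarboxylic acid cycle list had 3 higher and 3 lower of 23, with 1 higher when any 1 library was left out, and 1 higher and 10 lower with total-count scaling. Without LT 1 edgeR called 0 lower, with 2 at an unadjusted p under 0.05.

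Iron genes rose in 2 of 19 cases and fell in 5 (median -0.02, 0.03 with 5 higher without vehicle 2, and 0.08 without LT 1). The transferrin receptor Tfrc went from 176 and 176 to 55.3 and 48.8 CPM (log2 change -1.76, SE 0.10, adjusted p = 2.83e-05), and the exporter Slc40a1 (ferroportin) fell by 1.08. Slc11a1, an iron transporter of phagosomes, rose from 577 and 737 to 1206 and 1292 CPM (log2 change 0.93, SE 0.14, adjusted p = 0.00278). Of 23 NRF2 antioxidant genes 8 rose and 3 fell (median 0.27), with 3 higher without vehicle 1 and 4 without LT 2, and with 1 lower without vehicle 2 and 5 with total-count scaling. Without LT 1 edgeR called 0 lower, with 4 at an unadjusted p under 0.05. The mitochondrial superoxide dismutase Sod2 rose by 1.52 and Prdx1 by 1.1. Genes of the unfolded protein and integrated stress response had 5 higher and 5 lower of 27 (median 0.07). Total-count scaling gave 3 higher, 9 lower and a median of -0.13, and without vehicle 1 the counts were 1 and 2. Without LT 1 they were 3 and 1, without LT 2 there were 2 higher, and without vehicle 2 the median was -0.01. Sdf2l1, a chaperone cofactor, rose by 1.13 and Phgdh, which starts serine synthesis, fell by 1.04.

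Of 36 genes of mitosis 27 fell and 0 rose, with a median of -0.73. That count was 15 without vehicle 1 and 13 without LT 1. Ccnb1, the cyclin of mitotic entry, went from 122 and 102 to 49.01 and 53.7 CPM (log2 change -1.13, SE 0.12, adjusted p = 0.000634), and Kif23, a motor of the dividing midbody, from 39.6 and 30.5 to 15.6 and 15.1 CPM (log2 change -1.2, SE 0.15, adjusted p = 0.00148). The kinases Plk1 and Bub1 fell by 1.16 and 1.15. Of 36 DNA replication genes 5 rose and 6 fell (median -0.21), with 1 or 2 higher when any 1 library was left out, 2 lower without vehicle 1, 1 lower without LT 1 and 14 lower with total-count scaling. Rrm2, a subunit of ribonucleotide reductase, fell by 0.93, whereas Pcna, the sliding clamp of replication, went from 87.9 and 87.99 to 142 and 130.0 CPM (log2 change 0.63, SE 0.10, adjusted p = 0.00325). The Mcm2 to Mcm7 helicase genes did not pass the test, with changes of -0.42 to -0.12.

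Of 21 p53 targets and cell cycle inhibitors 0 rose and 7 fell (median -0.42, with 4 lower without LT 2 and 15 with total-count scaling). Phlda3 fell by 1.15, Sesn1 by 0.89 and Ccnd2, a cyclin of the growth phase, by 1.20. Cdkn1a (p21) stood at 163 and 175 and 131 and 144 CPM and did not pass the test. Of 37 cytosolic ribosomal protein genes 13 fell and 0 rose, by at most 0.55 on the log2 scale. That count was 4 without vehicle 2 or LT 2 and 27 with total-count scaling. Without vehicle 1 and without LT 1 edgeR called 0, with 5 and 3 lower at an unadjusted p under 0.05.

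Immediate early and AP-1 genes had 9 higher and 10 lower of 31 (median -0.08, 0.02 without vehicle 2 and 0.03 without LT 1). Without vehicle 1 edgeR called 0 higher (7 at an unadjusted p under 0.05) and 6 lower, and without LT 1 it called 2 higher and 5 lower. The count of higher genes was 5 without vehicle 2, 2 without LT 2 and 5 with total-count scaling. Bhlhe40 fell from 70.3 and 75.9 to 31.1 and 34.2 CPM (log2 change -1.16, SE 0.10, adjusted p = 0.000244), and Dusp4, a phosphatase of ERK kinases, from 14.8 and 12.6 to 4.15 and 4.92 CPM (log2 change -1.59, SE 0.17, adjusted p = 0.000674). Cebpb and Jund, called higher, belong to the GC-rich or library-split genes.

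Integrins and adhesion genes rose in 14 of 23 cases and fell in 3, with a median of 0.74. Icam1, the ligand of leukocyte integrins, went from 65.5 and 75.9 to 310.4 and 328 CPM (log2 change 2.17, SE 0.13, adjusted p = 2.96e-05), and Itgb7, an integrin of gut homing, from 21.5 and 23.9 to 118 and 107 CPM (log2 change 2.31, SE 0.12, adjusted p = 1.41e-05). Cd38, an enzyme that consumes NAD, rose by 1.73. Itga5, the fibronectin receptor chain, fell by 0.86. Itgb5 and Itgb1 belong to the GC-rich or library-split genes.

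Matrix proteases and their inhibitors fell in 13 of 22 cases and rose in 2 (median -0.74), with 6 lower without vehicle 1 and 5 without LT 1. The 2 increases, in Mmp19 and Adam17, did not hold in all of these fits, and total-count scaling left 1. Mmp12, the macrophage elastase, went from 375 and 403 to 106 and 62.5 CPM (log2 change -2.21, SE 0.23, adjusted p = 0.000582), and the inhibitor Timp3 from 402 and 258 to 88.7 and 101 CPM (log2 change -1.8, SE 0.22, adjusted p = 0.00138). Plat, the tissue plasminogen activator, fell by 1.38. Summed stromal markers were also lower with LT than with vehicle, and several of these genes are expressed by stromal cells too. The part of stromal RNA in these decreases was not tested. Of 15 osteoclast and fusion genes 4 rose and 5 fell (3 lower with any 1 of the 4 libraries left out), and the median was 0.03, or -0.16 with total-count scaling. Ocstamp, a protein of cell fusion, rose by 2.85 and the protease Ctsk fell by 1.16. Among 18 enzymes and receptors of purine and nucleotide signalling 9 rose and 2 fell (median 0.61, with 1 lower without vehicle 2 or LT 1 and 5 lower with total-count scaling). Upp1, uridine phosphorylase, went from 1.11 and 2 to 21.5 and 28.4 CPM (log2 change 4.02, SE 0.27, adjusted p = 5.64e-05), and Bst1, an ectoenzyme related to Cd38, rose by 3.49.

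The 20 largest decreases were smaller and less even between replicates than the largest increases. F13a1, the coagulation factor XIII subunit of monocytes and macrophages (chr13:36867178-37050244, minus strand), went from 107 and 195 to 9.19 and 7.81 CPM (log2 change -4.15, SE 0.30, adjusted p = 8.04e-05). Adgre4, an adhesion receptor of macrophages, fell from 5.51 and 6.59 to 0.638 and 0.695 CPM (log2 change -3.16, SE 0.29, adjusted p = 0.000277) and Nptx1, neuronal pentraxin, from 12.8 and 10.4 to 1.34 and 1.18 CPM (log2 change -3.21, SE 0.25, adjusted p = 0.000142). Cd28, best known as a T cell receptor for costimulation, fell from 14.5 and 17.6 to 3.51 and 1.93 CPM (log2 change -2.58, SE 0.26, adjusted p = 0.000517), and Mcam, an adhesion molecule of vessels and stroma, from 21.02 and 21.4 to 3.51 and 4.06 CPM (log2 change -2.48, SE 0.17, adjusted p = 6.53e-05). Ibsp, bone sialoprotein, had the largest fitted decrease, with 35 and 4.49 CPM in vehicle and 0.383 and 0.481 CPM with LT, but vehicle 1 alone was high and the call was lost without LT 1 or LT 2. Col8a2, C1qtnf3, Cbr2, Igfbp5, Esm1 and Itm2a also lost their calls without at least 1 library. Klhdc8a, Serpinb2 and Cspg4 belong to the GC-rich or library-split genes.

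Stromal markers fell in 15 of 17 tested cases, with a median of -1.37. Col3a1, a fibrillar collagen, went from 613 and 377 to 94.8 and 148 CPM (log2 change -2.02, SE 0.28, adjusted p = 0.00201), and Acta2, smooth muscle actin, from 2804 and 2228 to 869 and 1131 CPM (log2 change -1.33, SE 0.16, adjusted p = 0.00125). Fap, a surface protease of activated fibroblasts, fell from 5.65 and 3.84 to 1.15 and 1.18 CPM (log2 change -2.03, SE 0.33, adjusted p = 0.00447). Dcn and Thy1 did not pass the test, with changes of 0.14 and -0.86. Among called genes, the largest loss of CPM was in Thbs1, a matrix glycoprotein, which went from 9176 and 7534 to 3893 and 4898 CPM (log2 change -0.93, SE 0.15, adjusted p = 0.00492). The largest gain was in Psap, the precursor of lysosomal saposins, which went from 6630.2 and 6606 to 14152 and 11896 CPM (log2 change 0.98, SE 0.12, adjusted p = 0.00147).

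Some genes that rose lay next to each other. Of 18501 tested genes with a position, 300 lay in 60 runs of at least 4 neighbouring genes called higher, and 45 in 11 runs called lower. The longest run had 12 genes on chromosome 17 (GRCm38, 34083843 to 34216321) and held H2-DMa, H2-DMb1, Psmb8, Psmb9, Tap1, Tap2 and Brd2, a chromatin reader, with a median of 3.25. On chromosome 11 a run of 10 genes from Irgm1 to Ifi47 (48861968 to 49135387) had a median of 4.21, and on chromosome 5 a run of 9 from Gbp8 to Lrrc8c (105014150 to 105613018) a median of 7.79. The chromosome 3 guanylate-binding proteins from Gbp5 to Gbp2 (142493978 to 142638008) formed a run of 7 with a median of 6.94. A run of 8 on chromosome 15 (74929437 to 75159126) held Ly6e, Ly6i, Ly6a, Ly6c1, Ly6c2 and Ly6g, surface proteins of myeloid and other cells, with a median of 2.90. On chromosome 19 (29251828 to 29648415) the run of 8 from Jak2 over Cd274 and Pdcd1lg2 to Ermp1 had a median of 1.59, with 2 of its genes in the GC-rich or library-split sets. The longest run called lower had 5 genes on chromosome 1 (55077835 to 55248470), with the chaperones Hspd1 and Hspe1, and a median of -0.47. Many of these neighbours are paralogs or overlap, and how their reads were divided is not known.

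Levels with LCL161 plus LT are set beside those with LT alone for genes named above. Both comparisons use the same LT libraries, and 10.6% of all genes tested were higher and 15.1% lower with the antagonist added. Some genes were picked for the smallest or largest difference, so Gbp2 and Tgtp1 do not stand for all GTPases. Gbp2 stood at 2292 and 2449 CPM with LT and 2273 and 2343 CPM with LCL161 plus LT (log2 difference -0.04, adjusted p = 0.899). Tgtp1 stood at 1159 and 1209.8 and 1140.5 and 1194 CPM (-0.02, adjusted p = 0.957). A p that misses the threshold does not show that they were equal. Summed guanylate-binding proteins went from 5135 and 5457 CPM with LT to 5879 and 5625 CPM. Summed immunity-related GTPases went from 9115 and 9226 to 8020 and 8145 CPM. Ubd was higher still, at 14.2 and 14.5 and 119 and 129 CPM (3.11, adjusted p = 2.36e-05). Nos2 stood at 5.74 and 8.77 CPM with LT and 456 and 518 CPM with LCL161 plus LT, Cfb at 377 and 415 and 2573 and 3040.5 CPM, and Nfkb2 at 76.7 and 85.3 and 363 and 414 CPM. Sectm1a was lower, at 0.511 and 0.536 CPM (-3.83, adjusted p = 0.000263). Cxcl2, lower with LT than with vehicle, rose from 3.45 and 3.31 to 35.6 and 38.3 CPM (3.45, adjusted p = 1.53e-05), above its vehicle level of 17.7 and 19.9 CPM.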

How the data were processed

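RNA of mouse bone marrow-derived macrophages was sequenced in 6 libraries (2 each for vehicle, LT and LCL161 plus LT), grouped by sample title. Total RNA was taken with an RNeasy kit and standard Illumina libraries were made, per the labels' protocols. The authors deposited expected counts per gene symbol, unnormalised, with 66.6% of non-zero values whole, and they were rounded for the tests. STAR 2.7.3a, DESeq2 1.26.0 and GRCm38 were used, per the submitters' processing notes. The counting program, annotation, strand setting and treatment of reads with several matches are not stated there or in the labels, so counts of paralogs and overlapping genes are uncertain. The naming rule selects 513 genes. Exons overlap those of another gene for 80 of them on their own strand and for 156 on the opposite strand, and for 108 no library had a whole count.

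Total counts were 14718368 to 19049613 per library, and a floor of 3 reads was 0.139 to 0.23 CPM. Mitochondrial genes took 0.34% to 0.594% of counts. Of 55023 entries, filterByExpr (minimum 10 reads) left 18812. Date-like names stand for 26 entries, which are not named in the text. The group-means model was fitted in edgeR 4.0.16 (R 4.3.3, estimateDisp, glmQLFit, glmQLFTest, two-sided) with TMM factors of 0.874 to 1.15 over all 6 libraries, with 3 residual and 4.59 prior degrees of freedom, a biological coefficient of variation of 13.6% and Benjamini-Hochberg adjustment. The SE was taken as the log2 change over the square root of F. Replicates differed beyond counting error (chi-square per degree of freedom 15.6, 8.14 and 11.9); this does not show that they came from separate cultures. The fit was tested on simulated data.

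Positions and transcript starts are from GENCODE M21 (GRCm38), and promoter windows from RefSeq (GRCm38.p6). GC content was taken over the first 300 transcript bases. Motif letters were searched on both strands. Intervals and floors cover counting error only.

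The members and gene lists were chosen with earlier results of these data known. The rule names the 20 largest increases and decreases among called genes that reach a mean of 5 CPM in either group, leaving out predicted gene models, the 10 largest gains and losses in CPM, the 3 members with the lowest p of each list and any single member called in a direction, 10 fixed pathway genes, the most abundant marker per list and genes of neighbouring runs. Among the largest increases and decreases it also names those with the smallest and largest difference between LCL161 plus LT and LT, at most 3 each. Other genes named were chosen after their values were seen, for their role. Alternatives were relative log expression factors, total-count scaling, DESeq2 1.42.0, limma 3.58.1 voom, other filters, a fit of the 2 groups alone, a block for the replicate number, a 2-fold minimum and each library left out in turn. The sets of library-split and GC-rich genes were defined after the data were seen. Some members of the gene lists are counted but not reported here by name.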

Additional observations from a re-analysis of the deposited data

How the results depend on the processing

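No gene called with the reported settings was called in the opposite direction in any alternative. Total-count scaling raised the count of lower genes from 1991 to 3729, and testing against a minimum change of 2-fold left 516 higher and 132 lower. Leaving out 1 library at a time gave 1126 to 1722 higher and 735 to 1257 lower, with the fewest higher genes without vehicle 1 and the fewest lower genes without LT 1. Leaving out a library leaves a group with 1 sample, which is then assumed to vary like the others. DESeq2 gave 2361 and 1873, limma voom 2586 and 2192, and no filter beyond 1 read 3033 and 1812.

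The replicate numbers are shared by the groups, but nothing in the labels says that a number marks a common culture or day. With the replicate number as a block, 2344 genes were higher and 1800 lower. Deviations of replicate 1 correlated across genes at 0.138 between vehicle and LT, 0.0941 between vehicle and LCL161 plus LT and 0.157 between LT and LCL161 plus LT. Of 505 called genes the rule names, 160 lost the call without at least 1 library.

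Some genes that were not called changed sign. Lyz2, at -0.03, was 0.05 with no filter, 0.01 with the 2 groups alone, and -0.19 (without vehicle 1) to 0.14 (without vehicle 2) with 1 library left out. Cd4, at -0.05, was 0.01 with voom, 0.04 with no filter, and -0.40 (without vehicle 1) to 0.39 (without vehicle 2) with 1 library left out. Vwf, at -0.10, was -0.16 without vehicle 2 and 0.02 without LT 1, and Map3k14 was -0.13 with total-count scaling. The cause was not tested. At 2 libraries a group, genes under 1 CPM rest on few reads.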
